A study of Rattus norvegicus with 13 samples.

Results

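The genes described here are 10 feedback inhibitors of mitogen-activated protein kinase (MAPK) signalling, chosen by name: the dual-specificity phosphatases Dusp1, Dusp2, Dusp4, Dusp5, Dusp6 and Dusp10, the Sprouty genes Spry1, Spry2 and Spry4, and Spred1. All 10 are listed among the 38600 names of the tables of 6 and 8 months. The table of 2 months lists 25600 names and gave values for 9 of them; Dusp1 was not analysed here at 2 months. Bulk RNA-seq covered 13 samples of rat heart. Sonogenetic (ST) hearts express the mechanosensitive channel MscL-G22S, a bacterial protein with a single changed residue, together with the red fluorescent protein mCherry, both delivered by the virus AAV2/9 under the cTnT (cardiac troponin T) promoter, which is active in heart muscle cells. Control (WT) hearts are labelled as having had no treatment, so no virus-treated control was compared. There were 2, 3 and 3 ST hearts at 2, 6 and 8 months (ST2, ST6 and ST8) and 2 and 3 WT hearts at 2 and 6 months (WT2 and WT6). The labels do not say whether the months are an age or a time after virus injection, nor whether ultrasound was applied. They give no strain or sex of the rats.

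MAPK cascades relay signals from receptors and mechanical load through Ras, Raf, MEK and ERK, and through the stress kinases JNK and p38. Dual-specificity phosphatases remove both activating phosphates from the kinases, and several are themselves transcribed when the cascade is active, which closes a negative feedback loop. Sprouty and Spred proteins act higher up and restrain the activation of Ras and Raf below receptor tyrosine kinases. In the heart these loops are known for limiting growth signals in muscle cells.

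Promoter sequences are shown for Dusp5, Dusp1 and Spry4, the 3 genes that were higher in ST6 than in WT6 and lower in ST8 than in ST6. They come from RefSeq (assembly GRCr8) and run 5′ to 3′ on the strand of the gene over the 250 bases before the annotated start. Capitals mark, in Dusp5, 2 adjacent CArG boxes, the element bound by serum response factor; in Dusp1, a full cyclic AMP response element (CRE, TGACGTCA); in Spry4, copies of an 8-letter repeat, CATTCATA, that was noticed when the sequence was read.
Dusp5, chr1:262543524-262543773, plus strand: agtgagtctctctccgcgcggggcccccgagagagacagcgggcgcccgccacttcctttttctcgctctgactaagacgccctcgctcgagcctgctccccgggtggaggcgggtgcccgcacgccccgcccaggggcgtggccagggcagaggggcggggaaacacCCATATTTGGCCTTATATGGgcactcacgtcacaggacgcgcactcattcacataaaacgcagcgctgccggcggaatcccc
Dusp1, chr10:17184603-17184852, plus strand: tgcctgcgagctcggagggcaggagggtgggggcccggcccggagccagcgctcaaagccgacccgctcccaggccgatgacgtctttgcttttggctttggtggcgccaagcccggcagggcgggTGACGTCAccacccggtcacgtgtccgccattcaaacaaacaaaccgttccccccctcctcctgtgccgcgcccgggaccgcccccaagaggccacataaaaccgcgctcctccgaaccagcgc
Spry4, chr18:30702547-30702796, minus strand: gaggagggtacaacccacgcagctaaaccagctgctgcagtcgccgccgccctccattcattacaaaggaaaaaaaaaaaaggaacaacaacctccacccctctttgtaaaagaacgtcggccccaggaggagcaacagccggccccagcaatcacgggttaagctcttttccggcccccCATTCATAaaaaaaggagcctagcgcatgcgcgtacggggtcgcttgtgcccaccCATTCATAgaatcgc

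Windows of 300 bases, from 250 before the start to 50 after it, were searched on both strands for the CRE, its half-site TGACG, the AP-1 element TGANTCA, the CArG box and the NR4A element AAAGGTCA. Of the 10 members, 9 had a window (Spry2 had 2) and Dusp4 had none. The CArG boxes of Dusp5 lie at -82 to -73 and -72 to -63 from the start. Of all 33469 rat promoter windows 1.64% hold a CArG box, and 7 windows hold 2 or more. Dusp5 also holds a CRE half-site at -55 to -51. The full CRE of Dusp1, which contains the half-site on each strand, lies at -124 to -117, and a further half-site lies at -172 to -168. A full CRE is found in 1.83% of windows and a half-site in 21.2%. Half-sites were also found in Dusp2 and in 1 window of Spry2. The windows of Dusp6, Dusp10, Spry1, Spry4 and Spred1 held none of the 5 elements, of which AP-1 occurs in 7.33% and the NR4A element in 1.43% of all windows. The windows of Dusp10 and Spry1 lie within the RefSeq span of the gene, so that bases before that span were not searched. The Spry4 window holds CATTCATA 3 times, the last copy at 38 to 45 after the start and not printed. Of all windows 0.714% hold it at all, and 1 window, that of Spry4 itself, holds it 3 or more times. The letters were taken from this window, so that their rarity elsewhere is a description and no test. These matches describe letters in a window and not bound sites.

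The transgene MSCL_G22S was at 0 counts in all 5 WT libraries and was counted in all 8 ST libraries. It stood at 11.3 and 11.1 CPM (counts per M of a library's counts, M for mega) in ST2, at 204, 95.8 and 222 CPM in ST6 (replicates 1 to 3 throughout) and at 157, 114 and 180 CPM in ST8. Levels at 2 months and later come from tables with different name lists and are not compared. Libraries held 6.54 to 11.3 M counts at 2 months, 6.72 to 8.49 M at 6 months and 4.70 to 5.57 M at 8 months, so that 3 counts correspond to 0.267 to 0.626 CPM. Heart muscle markers (10 genes, Tnnt2 and the myosin gene Myh6 among them) summed to 110000 to 112000 CPM in ST8, 95200 to 103000 CPM in ST6 and 102000 to 110000 CPM in WT6. Myh6, the largest part in ST6 and WT6, averaged 39400 CPM in ST6 and 53600 CPM in WT6. Tnnt2 went the other way, at 13800 CPM in ST6 and 11300 CPM in WT6. The 7 lung markers summed to 4.18 to 5.82 CPM in ST8, 3.09 to 5.46 CPM in ST6 and 4.14 to 6.07 CPM in WT6. Of these, 4 were at 0 in every library of ST8, 5 in ST6 and 2 in WT6. At 6 months, ST6 replicate 2 and WT6 replicate 1 differed more from the other libraries of their groups than those did from each other: the chi-square of their counts over genes was 6.89 to 8.67 per degree of freedom in ST6 and 7.51 to 8.49 in WT6, against 1.93 and 2.13 for the remaining pair. At 2 months this chi-square was 12.1 per degree of freedom between the ST2 libraries and 7.68 between the WT2 libraries. With 2 libraries per group it cannot say which stands apart. Sample titles call the samples biological replicates but do not say that each is another animal, so p-values measure the spread between these samples. In bulk tissue, fewer cells of a type and less RNA per cell cannot be told apart.

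In hearts of 6 months the feedback inhibitors moved in opposite directions. Dusp5, Spry4, Dusp6 and Dusp1 were higher in ST6 than in WT6, and Dusp10, Spry1 and Spry2 were lower. With 7 of 10 members past the threshold (edgeR quasi-likelihood test, Benjamini-Hochberg adjusted p under 0.05), the share can be set against 40.0% of all 13253 genes tested, 19.9% higher and 20.1% lower. Groups did not overlap in 8 of the 10 members, against 52.2% of all genes. The median log2 fold change was 0.29 over the members and -0.002 over all genes. The range over the members is wider than this median shows, spanning 2.30 for Dusp5 and -2.27 for Dusp10.

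Dusp5 encodes a nuclear phosphatase specific for ERK and is an ERK-induced gene. It stood at 45.9, 26.7 and 48.8 CPM in ST6 and at 7.15, 8.50 and 8.55 CPM in WT6. Every ST6 library was above every WT6 library, and ST6 replicate 2 was the lowest of its group. The log2 fold change was 2.30 (SE 0.220, adjusted p = 8.74e-06), a 4.92-fold higher level. Dusp1, the broad nuclear phosphatase of ERK, JNK and p38, which glucocorticoids and stress induce, stood at 125, 153 and 130 CPM in ST6 and at 83.7, 93.0 and 98.5 CPM in WT6. The groups again did not overlap, and here ST6 replicate 2 was the highest of its group. Its log2 fold change was 0.55 (SE 0.0893, adjusted p = 0.000504).

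The other nuclear inducible phosphatases did not pass the test. Dusp4 stood at 5.57, 4.0 and 6.52 CPM in ST6 and at 4.18, 4.89 and 6.28 CPM in WT6, so that the groups overlapped throughout. Its difference of 0.04 has a 95% interval from -0.47 to 0.55 on the log2 scale. Dusp2, best known from lymphocytes, had 17, 9 and 11 counts in ST6 and 7, 11 and 7 counts in WT6 (2.63, 1.12 and 1.46 CPM against 1.42 or less in WT6). Its difference of 0.59 has an interval from -0.29 to 1.48, which takes in both no difference and one of more than 2-fold. Dusp2 passed the filter on low counts in this comparison and in neither comparison with ST8 nor in ST2 against WT2. It also passed where the ST effects at 6 and 2 months were compared. There its difference of 1.09 (95% interval from -0.62 to 2.79) was not called.

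Dusp6, the cytoplasmic phosphatase specific for ERK, stood at 26.0, 21.1 and 24.7 CPM in ST6 and at 14.8, 13.1 and 16.4 CPM in WT6. Every ST6 library lay above the WT6 range, by a log2 fold change of 0.67 (SE 0.124, adjusted p = 0.0012). Dusp10, a phosphatase that prefers JNK and p38 over ERK, showed the opposite order. It stood at 1.70, 1.37 and 1.73 CPM in ST6 and at 7.01, 8.37 and 7.48 CPM in WT6. ST6 libraries held 11, 11 and 13 counts of Dusp10, low but above the floor of 3 counts, and WT6 libraries held 52, 65 and 56. Its log2 fold change was -2.27 (SE 0.218, adjusted p = 9.29e-06), which leaves 0.208 of the WT6 level.

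The Sprouty genes were split. Spry4 stood at 33.4, 27.3 and 39.1 CPM in ST6 and at 13.1, 10.7 and 11.6 CPM in WT6. The lowest ST6 library lay well above the highest WT6 library, and the log2 fold change was 1.47 (SE 0.144, adjusted p = 1.05e-05). Spry1 stood at 23.2, 25.8 and 26.9 CPM in ST6 and at 45.7, 37.2 and 42.4 CPM in WT6. All ST6 libraries were below all WT6 libraries, with a log2 fold change of -0.74 (SE 0.101, adjusted p = 0.000144). Spry2 stood at 16.8, 17.0 and 20.4 CPM in ST6 and at 25.5, 29.4 and 27.8 CPM in WT6. It was likewise lower without overlap, with a log2 fold change of -0.63 (SE 0.109, adjusted p = 0.000825). Spred1, which recruits the Ras-inhibiting protein neurofibromin to the membrane, stood at 19.5, 20.5 and 19.2 CPM in ST6 and at 20.8, 22.5 and 24.0 CPM in WT6. The groups did not overlap by a narrow margin, and the difference of -0.21 did not pass the test (SE 0.101, adjusted p = 0.124). It passed with scaling by library size only (-0.32, adjusted p = 0.0223), a scaling that moves the median of all genes by -0.116.

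Without the pair of libraries that stood apart, an alternative added after the data were seen, the same 4 members were higher and the same 3 lower. Dusp5 then had a log2 fold change of 2.46, Spry4 1.69, Dusp6 0.76, Dusp1 0.40, Dusp10 -2.21, Spry1 -0.68 and Spry2 -0.63. Within ST6, replicate 2 had the lowest level of the transgene, of Dusp5 and of Spry4, and replicate 3 had the highest of all 3. Dusp1, in contrast, was highest in ST6 replicate 2 (153 CPM). The order did not hold in ST8, where replicate 2 had the lowest transgene level (114 CPM) but the highest Dusp5 (6.00 CPM) and Spry4 (11.1 CPM). With 3 libraries per group these are orders and not tested relations.

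**Figure D1:**
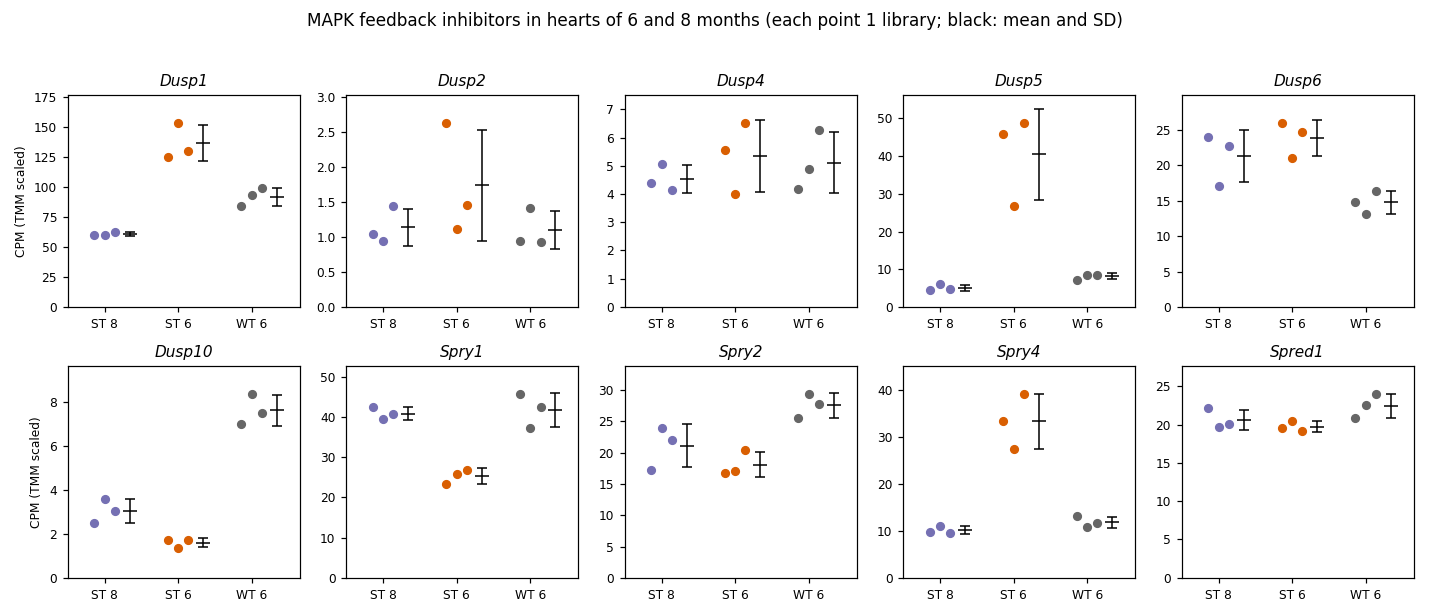
CPM (TMM scaled across the 9 libraries) of each member in ST hearts of 8 months, ST hearts of 6 months and WT hearts of 6 months; each point is 1 library, and the black bar gives the mean and SD (n = 3). Dusp5 lies at 26.7 to 48.8 CPM in ST6 and at 8.55 CPM or less in WT6, Dusp10 at 1.37 to 1.73 CPM in ST6 and at 7.01 CPM or more in WT6.

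At 8 months Dusp5, Spry4 and Dusp1 were lower than at 6 months in ST hearts, and Spry1 and Dusp10 were higher. In ST8 against ST6, 3 of 9 members tested were lower and 2 were higher, beside 39.6% of all 12931 genes called, 20.5% lower and 19.1% higher. The groups did not overlap in 5 of 9, against 50.7% of all genes. ST8 libraries form a table and a time point of their own, with no WT group at 8 months, so that the time, the table and the depth cannot be told apart. ST8 against WT6 carries the same limit and in addition shares its libraries with both other comparisons.

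Dusp5 stood at 4.38, 6.00 and 4.85 CPM in ST8 against the ST6 values of 26.7 CPM or more given above. Its log2 fold change against ST6 was -2.95 (SE 0.252, adjusted p = 1.63e-06), a level of 0.129 of that in ST6. ST8 libraries also lay below every WT6 library, with a log2 fold change against WT6 of -0.64 (SE 0.193, adjusted p = 0.0163). That second call rests on single libraries: it was lost without WT6 replicate 2 (adjusted p = 0.0526), ST8 replicate 1 (0.0684) or ST8 replicate 3 (0.0657), with DESeq2 (0.0808) and in a fit over all later groups (0.103).

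Dusp1 stood at 59.7, 60.2 and 62.5 CPM in ST8. These are below all libraries of ST6 and of WT6, by a log2 fold change of -1.13 against ST6 (SE 0.0846, adjusted p = 4.64e-07) and of -0.57 against WT6 (SE 0.0784, adjusted p = 3.75e-05). The order of the 3 groups in Dusp1 is therefore ST8, WT6, ST6 with no overlap between neighbours. Dusp6 stood at 24.0, 17.1 and 22.8 CPM in ST8. It overlapped with ST6 (-0.14, 95% interval from -0.43 to 0.16) and lay above WT6 (0.54, SE 0.140, adjusted p = 0.00694). Of the 4 members higher in ST6 than in WT6, Dusp6 was also higher in ST8 than in WT6, whereas Dusp1 and Dusp5 were lower and Spry4 was not called.

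Dusp10 stood at 2.51, 3.57 and 3.05 CPM in ST8, all above ST6 and all below WT6. ST8 libraries held 12, 19 and 17 counts. The log2 fold change was 0.96 against ST6 (SE 0.294, adjusted p = 0.0207) and -1.30 against WT6 (SE 0.217, adjusted p = 0.000251). The call against ST6 was lost with DESeq2 (adjusted p = 0.14) and without ST6 replicate 2 (0.0614), ST8 replicate 2 (0.0958) or ST8 replicate 3 (0.0598), while the call against WT6 held in all 14 alternatives.

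Spry4 stood at 9.81, 11.1 and 9.51 CPM in ST8. It was below all ST6 libraries by a log2 fold change of -1.68 (SE 0.151, adjusted p = 2.59e-06) and overlapped with WT6 (-0.20, 95% interval from -0.51 to 0.11). Spry1 stood at 42.4, 39.4 and 40.7 CPM in ST8. It was above ST6 by 0.71 (SE 0.0905, adjusted p = 5.13e-05) and within the range of WT6 (-0.01, 95% interval from -0.21 to 0.19). Spry2 stood at 17.3, 24.0 and 22.1 CPM in ST8, which overlaps with ST6 (0.26, 95% interval from -0.03 to 0.55) and lies below WT6 (-0.36, SE 0.120, adjusted p = 0.0305). That call was lost without WT6 replicate 2 or 3 (adjusted p = 0.0997 and 0.0632), without ST8 replicate 1 or 3 (0.152 and 0.0626) and with DESeq2 (0.0895).

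Against WT6, ST8 thus had 1 of 9 members higher (Dusp6) and 4 lower (Dusp1, Dusp5, Dusp10 and Spry2), beside 33.9% of all 13095 genes called, 17.8% higher and 16.1% lower. The groups did not overlap in 5 of 9 members, against 46.8% of all genes. Dusp4, at 4.38, 5.07 and 4.13 CPM in ST8, and Spred1, at 22.1, 19.7 and 20.1 CPM in ST8, passed the test against neither group. For Spred1 the 95% intervals run from -0.14 to 0.32 against ST6 and from -0.34 to 0.13 against WT6. Those of Dusp4 are wider, from -0.72 to 0.30 and from -0.64 to 0.32. Dusp2 had 5, 5 and 8 counts in ST8 and was not tested there.

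**Figure D2:**
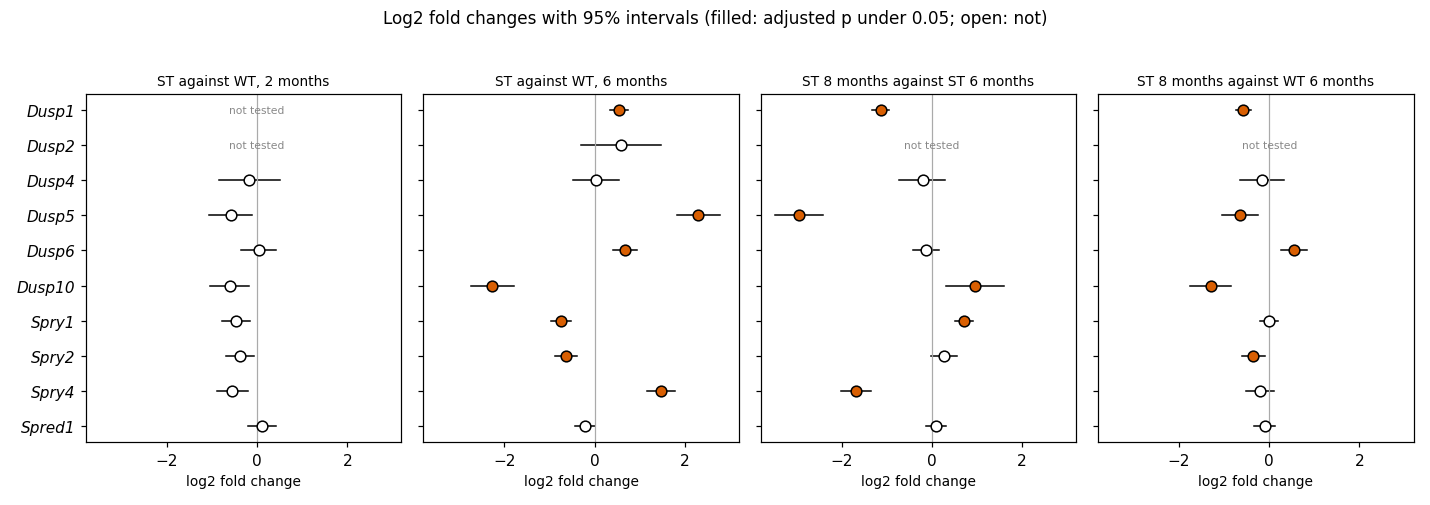
Log2 fold change of each member (point) with its 95% interval (line) in 4 comparisons, with filled points for an adjusted p under 0.05 and open points otherwise. Dusp5 lies at 2.30 for ST against WT at 6 months and at -2.95 for ST of 8 against 6 months, whereas no point is filled at 2 months.

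The split among the members also appears within each library, where it does not depend on how libraries are scaled. These ratios of counts were chosen after the values were seen and are given as a description. ST8 libraries had 1.75, 1.68 and 1.59 counts of Dusp5 per count of Dusp10, ST6 libraries 27.0, 19.5 and 28.2, and WT6 libraries 1.02, 1.02 and 1.14. The corresponding ratio of Spry4 to Spry1 was 0.232, 0.281 and 0.233 in ST8, 1.44, 1.06 and 1.46 in ST6, and 0.286, 0.287 and 0.274 in WT6. Spry4 thus had more counts than Spry1 in all 3 ST6 libraries and fewer in the other 6. The 9 members without Dusp1 summed to 128, 127 and 129 CPM in ST8, 175, 145 and 189 CPM in ST6 and 139, 136 and 145 CPM in WT6. For these 9 members ST6 replicate 2 only reached the level of the highest WT6 library. Dusp1, left out of the sum, was at 153 CPM in ST6 replicate 2 and at 98.5 CPM or less in WT6. The overlap therefore does not extend to a sum with Dusp1.

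**Figure D3:**
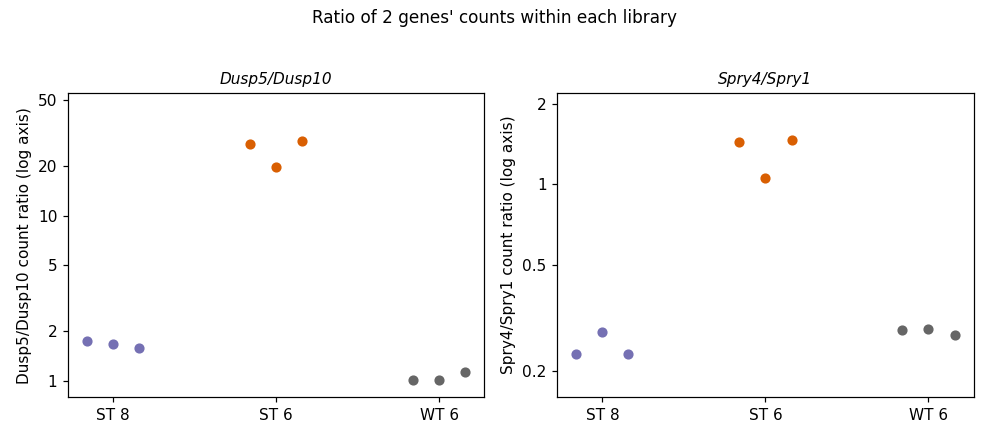
Ratio of the counts of 2 genes within each library (log axes) in ST hearts of 8 months, ST hearts of 6 months and WT hearts of 6 months, 1 point per library. Dusp5 per Dusp10 is 19.5 or more in ST6 and between 1.02 and 1.75 in the other libraries; Spry4 per Spry1 is 1.06 or more in ST6 and 0.287 or less in the others.

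At 2 months no member passed the test: 0 of 8 tested, by edgeR, by DESeq2 and by limma-voom, beside 4.80% of all 12121 genes called (2.70% higher and 2.10% lower). At an unadjusted p under 0.05, 5 of the 8 differed, all with lower levels in ST2, where 18.6% of all genes did. These are Dusp5, Dusp10, Spry1, Spry2 and Spry4, and they are also the members whose groups did not overlap (49.0% of all genes did not).

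Spry4 stood at 17.3 and 17.5 CPM in ST2 and at 27.8 and 22.6 CPM in WT2. Both ST2 libraries were below both WT2 libraries, and the difference of -0.55 (SE 0.165) missed the threshold at an adjusted p = 0.0664. It passed with no filter on low counts (adjusted p = 0.0282) and without ST2 replicate 2 (0.026). Spry1 stood at 25.9 and 27.7 CPM in ST2 and at 37.5 and 35.9 CPM in WT2 (-0.46, adjusted p = 0.081). Spry2 stood at 21.0 and 22.7 CPM in ST2 and at 28.2 and 28.4 CPM in WT2 (-0.38, adjusted p = 0.18). All 3 Sprouty genes thus had lower values in both ST2 libraries, without a call.

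Dusp10 stood at 7.56 and 7.79 CPM in ST2 and at 11.4 and 12.0 CPM in WT2 (-0.61, adjusted p = 0.106). Dusp5 stood at 7.65 and 9.56 CPM in ST2 and at 10.8 and 15.1 CPM in WT2 (-0.59, adjusted p = 0.154). Without ST2 replicate 2, Dusp5 (adjusted p = 0.0334) and Spry1 (0.0158) passed as well. In the remaining members the groups overlapped. Dusp6 stood at 15.9 and 13.5 CPM in ST2 and at 14.4 CPM in both WT2 libraries. Spred1 stood at 47.1 and 38 CPM in ST2 and at 39.0 and 39.7 CPM in WT2, and Dusp4 at 3.11 and 3.42 CPM in ST2 and 3.34 and 4.06 CPM in WT2. Dusp2, with 5 counts in each ST2 library and 4 and 7 counts in WT2, was below the filter.

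**Figure D4:**
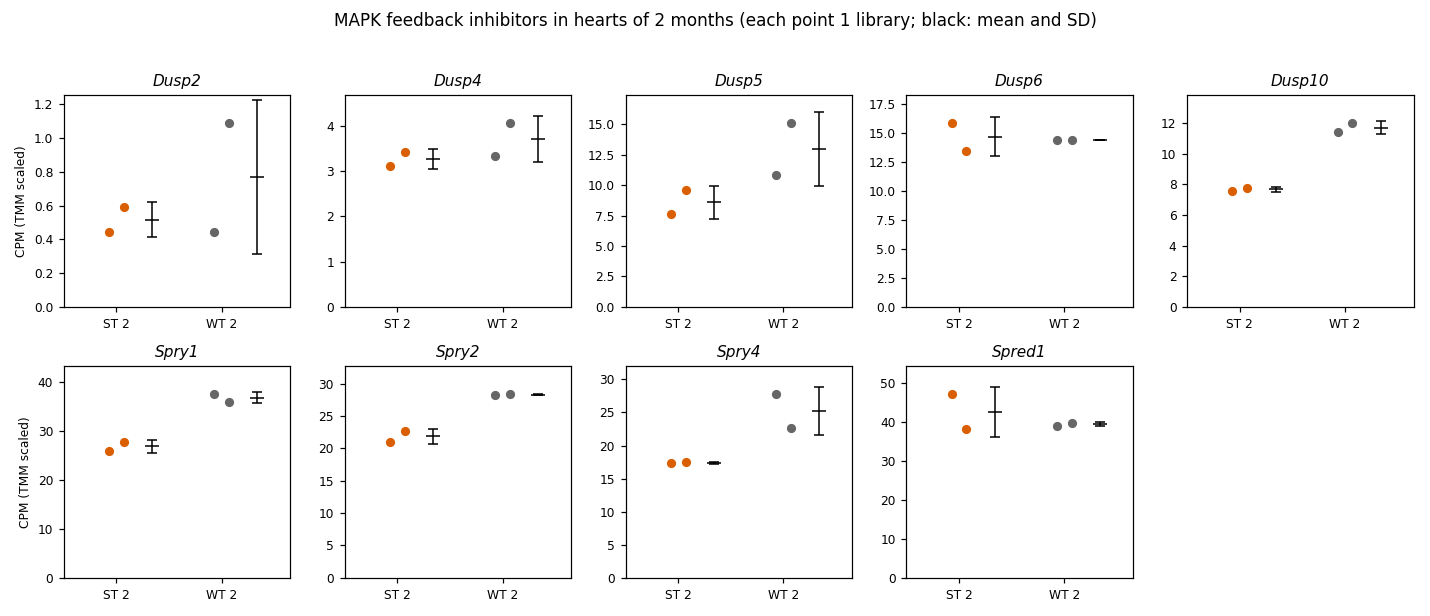
CPM (TMM scaled within the table of 2 months) of the 9 members listed there, in ST and WT hearts of 2 months; each point is 1 library, and the black bar gives the mean and SD (n = 2). Both ST points lie below both WT points in Dusp5, Dusp10, Spry1, Spry2 and Spry4.

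The effect of the ST group at 6 months was then set against that at 2 months in 1 model, which compares effects within tables and no levels. It differed in 4 of 9 members, 3 upwards and 1 downwards, beside 22.2% of all 12658 genes (10.2% upwards and 12.0% downwards). The difference was 2.88 for Dusp5 (SE 0.351, adjusted p = 3.46e-05), 2.02 for Spry4 (SE 0.222, adjusted p = 1.14e-05) and 0.63 for Dusp6 (SE 0.207, adjusted p = 0.0391), with the more positive effect at 6 months. It was -1.67 for Dusp10 (SE 0.278, adjusted p = 0.000544), whose effect was more negative at 6 months. Spry1 and Spry2, lower in ST6 than in WT6, had differences of -0.29 (95% interval from -0.63 to 0.05) and -0.26 (from -0.61 to 0.10) and were not called. The Dusp6 call was lost in 9 of 17 alternatives, the highest adjusted p being 0.122.

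By likeness of pattern over the 9 libraries of 6 and 8 months, each member was matched to the genes with the smallest root mean square (RMS) difference in log2 CPM, each gene centred on its own mean, among 11890 candidates (11891 for Dusp2). Nearest to Dusp5 were Junb, a subunit of the AP-1 transcription factor, at an RMS of 0.253, and Uap1, an enzyme of amino sugar synthesis, at 0.280, where the median candidate was at 1.27. Nearest to Spry4 were Ugdh, which makes UDP-glucuronate, at 0.128, and Zfp36, an immediate early protein that destabilises mRNA, at 0.136 (median 0.777). For Dusp10 they were Nxpe3 at 0.132 and the orphan receptor Gpr22 at 0.156 (median 0.889). For Dusp1 they were the lipid droplet protein Plin4 at 0.0763 and Irak3, an inhibitor of Toll-like receptor signalling, at 0.111 (median 0.516). The other nearest genes were Tpcn2 and Cmtm6 for Dusp6, Cfap20 and Fbxl6 for Spry1, Zfp689 and Reep1 for Spry2, Nptn and Kirrel1 for Spred1, N6amt1 and Naxd for Dusp4, and Tyro3 and Itpripl1 for Dusp2.

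The rest of the pathway was described by 8 gene lists. Their counts at 6 months stand beside 40.0% of all 13253 genes called, 19.9% higher and 20.1% lower. At 6 months the genes that respond to ERK were mostly higher in ST6: 25 of 34 tested were higher and 1 was lower, with a median log2 fold change of 1.20. Their leading members were Fos (5.46, SE 0.146), Egr1 (4.67, SE 0.132), Atf3 (4.82, SE 0.172) and Fosl2 (2.21, SE 0.0934), all immediate early transcription factors. Fos averaged 61.6 ± 3.37 CPM in ST6 and 1.37 ± 0.331 CPM in WT6 (SD, n = 3 each). The 1 lower gene of this list was Etv1 (-1.62), and Etv5 was not called (0.31, adjusted p = 0.162). Fosb is counted both here and among the genes responsive to cyclic AMP. The list describes RNA levels, and the activity of ERK was not measured. Genes responsive to cyclic AMP were higher in 9 and lower in 1 of 16 (median 1.19), led by the nuclear receptors Nr4a1 (4.74) and Nr4a3 (5.89) and the kinase gene Sik1 (4.15). Other dual-specificity MAPK phosphatases, listed together with related genes, were higher in 7 and lower in 2 of 16 (median 0.21). The higher include Ppp2ca (0.99), Ppm1b (0.50), Ppm1a (0.25) and Ptprr (0.35), which are not Dusp genes. The 2 lower, Dusp7 (-0.55) and Dusp19 (-0.59), are Dusp genes. Dusp8, a phosphatase of JNK and p38, averaged 74.0 ± 8.80 CPM in ST6 and 19.7 ± 1.70 CPM in WT6 (SD, n = 3 each; 1.89, SE 0.107). Dusp16, also a JNK phosphatase, was higher by 0.66 (SE 0.0983), so that Dusp10 and Dusp8, both known to act on the stress kinases, differed in direction.

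Other feedback inhibitors of receptors and Ras were higher in 5 and lower in 7 of 24 at 6 months (median -0.09). Errfi1, an inhibitor of the EGF receptor, was higher by 1.57 (SE 0.0991) and Rassf1 by 1.24 (SE 0.116), while Socs2, a suppressor of growth hormone signalling, was lower, at -1.17 (SE 0.116), as was Lrig1 at -0.68 (SE 0.0776). Kinases and adaptors of the ERK core were higher in 14 and lower in 5 of 33 (median 0.14), with the Ras activator Rasgrp1 at -2.14 (SE 0.274). Receptors and ligands were higher in 13 and lower in 12 of 36, among them Vegfa (1.06), Fgfr3 (1.27), Erbb2 (-1.38) and Fgf16 (-1.40). JNK and p38 kinases were higher in 4 and lower in 6 of 25, with Map3k6 at 1.46 and Map3k5 at -1.06. Kinases activated by MAPKs were higher in 3 and lower in 2 of 12. The share called in these last 2 lists was near that of all genes, 40.0%.

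In ST8 against ST6 the genes that respond to ERK were lower in 25 and higher in 4 of 34 (median -1.20), and those responsive to cyclic AMP were lower in 10 of 16 and higher in 0 (median -1.18). Fos averaged 1.16 ± 0.366 CPM in ST8, against 61.6 ± 3.37 CPM in ST6 (-5.70, SE 0.166), and Junb 19.4 ± 1.04 CPM in ST8, against 141 ± 28.0 CPM in ST6 (SD, n = 3 each; -2.84, SE 0.137). Dusp8 was lower, at -1.64 (SE 0.112), and led the other phosphatases, 5 lower and 2 higher of 15. Among other feedback inhibitors 7 were lower and 3 higher of 23, with Errfi1 at -1.15, Rassf1 at -1.32, Tob1 at -1.10 and Socs2 at 0.71. The ERK core had 10 lower and 4 higher of 32, receptors and ligands 12 and 7 of 35, JNK and p38 kinases 8 and 4 of 25, and kinases activated by MAPKs 1 and 0 of 12. Of all 12931 genes tested, 39.6% were called, 20.5% lower and 19.1% higher.

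In ST8 against WT6 the lists had no common direction. Of all 13095 genes tested, 33.9% were called, 17.8% higher and 16.1% lower. Genes that respond to ERK were higher in 9 and lower in 7 of 30 (median 0.10), with Egr1 at 2.19, Ccnd1 at 1.24 and the ETS factor Etv1 at -1.47. Genes responsive to cyclic AMP were higher in 6 and lower in 1 of 15 (median -0.02), with Sik1 at 2.29, Nr4a1 at 2.01 and Nr4a3 at 1.88. Other phosphatases were higher in 6 and lower in 2 of 16, among them Dusp7, a cytoplasmic ERK phosphatase related to Dusp6, at -1.09 (SE 0.0883). Other feedback inhibitors were higher in 1 and lower in 8 of 24 (Tob1 at -1.03). The ERK core had 10 higher and 5 lower of 33, receptors and ligands 5 and 10 of 36, JNK and p38 kinases 1 and 8 of 25, and kinases activated by MAPKs 1 and 2 of 12. Over all genes the median log2 fold change was between -0.008 and 0.019 in these 3 comparisons.

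At 2 months the genes responsive to cyclic AMP were higher in ST2 in 9 of 16 and lower in 0 (median 1.07), with Nr4a3 at 3.87 (SE 0.197), Sik1 at 2.73 (SE 0.158) and Crem at 1.65 (SE 0.161). Genes that respond to ERK were higher in 3 (Klf10, Fosl2 and Maff) and lower in 1 (Jund) of 34 (median -0.03). Of all 12121 genes tested, 4.80% were called, 2.70% higher and 2.10% lower. Of the other phosphatases, Dusp14 was higher by 1.26 (SE 0.321) and Dusp8 lower, at -0.71 (SE 0.159), among 14. Of the other feedback inhibitors, Cblb alone of 24 was called by edgeR, at 0.58 (SE 0.162, adjusted p = 0.0489); DESeq2 and limma-voom called 0. Receptors and ligands had 3 higher and 3 lower of 36, JNK and p38 kinases 1 higher of 24 (Map3k6, 1.98), and the ERK core and the kinases activated by MAPKs 0 of 32 and 0 of 12 by edgeR, DESeq2 and limma-voom, with 7 and 2 at an unadjusted p under 0.05.

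**Figure D5:**
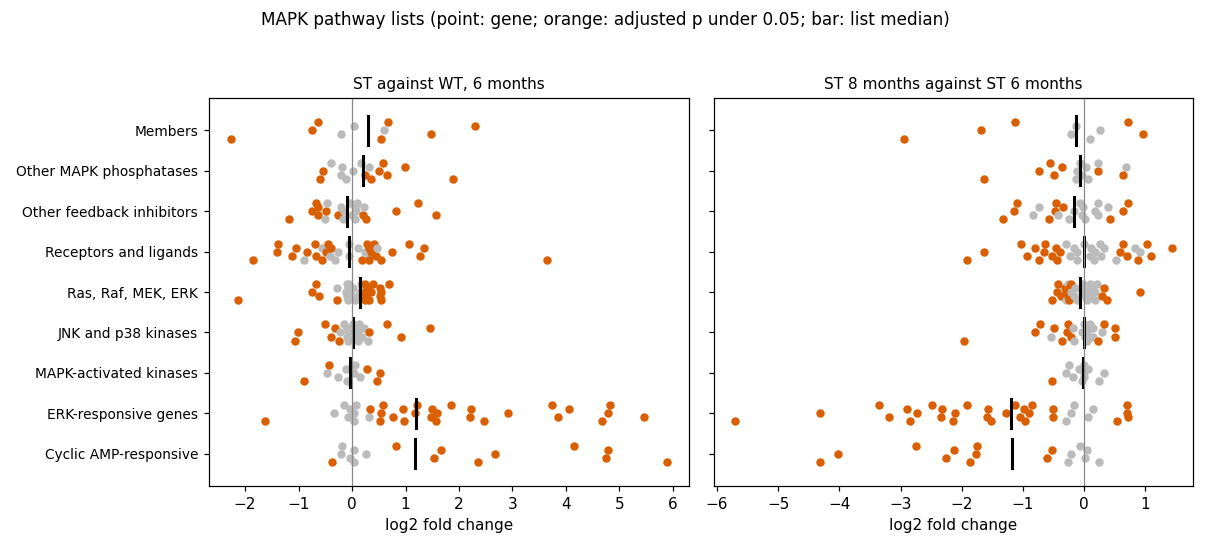
Log2 fold changes of the members and of 8 pathway lists for ST against WT at 6 months and for ST of 8 against 6 months; each point is a gene, orange for an adjusted p under 0.05, and the black bar is the median of the list. The medians of genes that respond to ERK lie at 1.20 and -1.20, whereas the members spread to both sides of 0 in both panels.

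Markers of other cell types were read as levels in the same libraries. Their called counts stand beside the shares of all genes called. These shares were 40.0% at 6 months, 39.6% in ST8 against ST6 and 33.9% in ST8 against WT6. They were 4.80% at 2 months and 22.2% for the difference between 6 and 2 months. Among the heart muscle markers summed above, 4 of 10 were higher in ST6 than in WT6 (Tnnt2, Actc1, Nppa and Myl3) and 1 was lower (Myh6). At 6 months the summed level of 8 erythroid markers was 673 to 759 CPM in ST6 and 373 to 495 CPM in WT6, and all 5 tested were higher. Endothelial markers summed to 1180 to 1330 CPM in ST6 and 980 to 1200 CPM in WT6 (4 higher and 2 lower of 10). In ST8 they summed to 1370 to 1440 CPM, with 7 higher and 0 lower of 10 against WT6. Fibroblast markers summed to 3110 to 3510 CPM in ST6 and 2880 to 3180 CPM in WT6 (5 higher and 4 lower of 10). The largest part of that sum was Gsn, on average 2210 CPM in ST6 and 1810 CPM in WT6 (0.26). The 4 lower were Col3a1 (-1.07), Col1a1 (-1.16), Col1a2 (-0.70) and Pdgfra (-0.45), so that the sum does not stand for the whole list. Smooth muscle and pericyte markers summed to 713 to 876 CPM in ST6 and 713 to 753 CPM in WT6, with 6 higher and 1 lower of 10 (median log2 fold change 0.50), among them the smooth muscle actin Acta2 (1.27, SE 0.153) and the contractile protein gene Cnn1 (2.83, SE 0.502). Mesothelial markers summed to 29.9 to 32.9 CPM in ST6 and 23.1 to 36.3 CPM in WT6, with 1 higher and 2 lower of 3 tested. Of these, Msln was lower, at 0.603 ± 0.791 CPM in ST6 and 5.82 ± 3.08 CPM in WT6, and Upk3b was lower, at 0.507 ± 0.440 CPM in ST6 and 3.48 ± 1.56 CPM in WT6, while Wt1 was higher, at 28.9 ± 2.49 CPM in ST6 and 15.4 ± 1.12 CPM in WT6 (SD, n = 3 each). Macrophage markers summed to 90.3 to 104 CPM in ST8, 141 to 199 CPM in ST6 and 131 to 169 CPM in WT6, with 5 of 10 lower in ST8 than in ST6 and 6 of 10 lower than in WT6. Lymphocyte markers summed to 30.7 CPM or less in every later library, with Ms4a1 at 0 in ST6. At 2 months erythroid markers summed to 304 to 397 CPM in ST2 and 145 to 179 CPM in WT2. Mesothelial markers summed there to 18.1 to 21.7 CPM in ST2 and 10.5 to 10.6 CPM in WT2, with 2 higher of 3 tested: Msln at 3.18 ± 2.67 CPM in ST2 and 0.134 ± 0.0317 CPM in WT2, and Upk3b at 1.36 ± 0.0890 CPM in ST2 and 0.0781 ± 0.110 CPM in WT2 (SD, n = 2 each). The ST effect at 6 months was lower than that at 2 months in 4 of 5 mesothelial markers tested and higher in 2 and lower in 1 of 10 smooth muscle and pericyte markers. The part of these markers in the values of the members was not tested.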

How the data were processed

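The deposited values are expected counts per gene, per sample, in 3 tables of 1 time point each; the authors' aligner, counter and annotation are not given in the sources used here. Per the submitters' processing notes the builds are GRCm38 and mm10, which are mouse builds, whereas the names are rat symbols (38599 of the 38600 names of the later tables match RefSeq symbols of GRCr8). Of the values, 6.14% to 11.0% per library are not whole, and rounding made all of them whole.

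Comparisons were fitted on the libraries of the groups concerned, over the names their tables share. Genes were kept by filterByExpr, scaled by TMM and tested two-sided with edgeR 4.0.16 (glmQLFit and glmQLFTest) in R 4.3.3, with Benjamini-Hochberg adjustment over all genes tested and a threshold of 0.05. Standard errors (SE) are approximate, from the size of the log2 fold change over the root of its F statistic, and a 95% interval uses it with the t quantile of the fit. CPM were scaled by TMM within the table of 2 months and across the 9 later libraries. The floor of 3 counts covers counting error only. Alternatives were other scalings and filters, DESeq2 1.42.0, voom of limma 3.58.1, a block for the replicate number, 1 fit over all later groups, and leaving out each library. The scripts were tested on simulated data. The members, the gene lists and the choice of tests were made with earlier results of these data known. The text names, from each list, up to 4 genes with the smallest p among those past the threshold, and for each member its 2 nearest genes; a list's further genes are counted, and some genes that this rule gives are not reported here.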

Additional observations from a re-analysis of the deposited data

Results flagged for a closer look

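The effect of the ST group differed between 6 and 2 months, by the test of the difference itself, in Dusp5 (2.88 on the log2 scale, 6 minus 2 months), Spry4 (2.02), Dusp10 (-1.67) and Dusp6 (0.63). In Dusp5 and Spry4 the difference combines a higher level in ST than in WT hearts at 6 months with values below WT, not called, at 2 months. In Dusp10 values were lower in ST hearts at both time points, with a call at 6 months. The 2 time points differ also in table, in name list and in group size (2 against 3 libraries), whose part in these differences was not tested.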

How the results depend on the processing

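The 7 calls at 6 months held in all 15 alternatives run for each; over all comparisons, of 639 values of members under alternatives, 602 kept their direction and side of the threshold, 23 lost the call, 6 gained one and 8 changed sign. At 2 months 582 genes were called, against 1019 with no filter, 359 with DESeq2 and 271 to 2013 when a library was left out (271 without WT2 replicate 1, 2013 without ST2 replicate 2); members called lower numbered 1 with no filter (Spry4) and 0 to 3 when a library was left out. In ST8 against ST6, members called higher numbered 1 with a filter of 5 CPM (under which Dusp10 was not tested), 1 with DESeq2, and 1 to 2 when a library was left out. In ST8 against WT6, members called lower numbered 2 with DESeq2 and 2 to 4 when a library was left out. For the difference between 6 and 2 months, 1558 to 3197 genes were called when a library was left out (1558 without WT2 replicate 1), and 1 to 2 members were lower, Spred1 joining Dusp10 without ST2 replicate 2 (-0.48, adjusted p = 0.0336).

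The 8 changes of sign were in values not called with all libraries. At 2 months they came without ST2 replicate 1, in Dusp6 (-0.11 to 0.14 over the libraries left out) and Spred1 (-0.06 to 0.26). At 6 months Dusp4 was at -0.07 with library size only and at -0.13 to 0.23 over the libraries left out, below 0 without WT6 replicate 1 (-0.08) and without ST6 replicate 3 (-0.13). In ST8 against WT6 Spry1 ran over -0.09 to 0.05, above 0 without WT6 replicate 1 (0.05) and without ST8 replicate 2 (0.02), and Dusp4 over -0.29 to 0.01, above 0 without WT6 replicate 3. The causes were not tested.

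Scaling by library size only moved the share of calls that were higher to 31.8% at 6 months (49.8% with TMM; 1731 higher and 3714 lower), 58.9% in ST8 against ST6 (48.2%), 39.7% in ST8 against WT6 (52.4%) and 34.7% for the difference (46.0%), with no change in a member's call other than Spred1 at 6 months and Dusp6 in the difference (0.54, adjusted p = 0.0732). No label ties samples of the same replicate number. Correlations of their deviations across genes were all positive but mostly small: 0.071 at 2 months, 0.030, 0.111 and 0.004 at 6 months, 0.055, 0.178 and 0.038 for ST8 with ST6, and 0.040, 0.035 and 0.026 for ST8 with WT6. Every library correlated best with its own number in ST8 with WT6, a hint from the data and not the design, but not in ST6 with WT6 or ST8 with ST6. The replicate block gave 636, 5435, 5427, 4652 and 2941 genes in the 5 comparisons and changed no member's call. Depth limits Dusp2 and, in ST6 and ST8, Dusp10, which had under 20 counts per library.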
